A study of Mus musculus with 6 samples.

Results

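The Arg1 Pf4 Spp1 macrophages of day 1 are the myeloid cells of muscle injured 1 day earlier whose RNA was rich in arginase 1 (Arg1), platelet factor 4 (Pf4) and osteopontin (Spp1). They were taken from the raw counts of unique molecular identifiers (UMIs, one per captured RNA molecule) by a fixed rule. A barcode, the tag of a cell droplet, was kept when it had at least 500 UMIs, at least 200 genes and at most 10% mitochondrial UMIs. A kept barcode was a member when Csf1r, Ccr2 and Ms4a6c had at least 2 UMIs together, Arg1, Pf4 and Spp1 had at least 5 UMIs together and more than Plac8, Chil3 and Vcan together, and Cd209a had 0. The rule gave 5980 members of 22217 kept barcodes on day 1, with 2516 of 10984 in the library collected at ZT4 and 3464 of 11233 in the library collected at ZT16. The whole series held 64032 kept barcodes in 6 libraries. Because these 10 genes chose the cells, their levels in the members are given as a description only.

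After muscle damage, monocytes leave the blood, enter the tissue and become macrophages, which clear dead fibres and later support the muscle stem cells that rebuild them. Arginase 1 turns arginine into ornithine, the precursor of polyamines and proline, and is a common mark of macrophages engaged in repair. Pf4 (CXCL4) and Ppbp (CXCL7) are chemokines best known from the granules of platelets, Spp1 is a secreted matrix phosphoprotein, and Hmox1 (haem oxygenase 1) breaks down haem released from damaged cells and red cells.

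The study asked how the circadian clock of muscle stem cells bears on immune cells during muscle repair. Wildtype mice received cardiotoxin, a snake venom toxin that kills muscle fibres, in the tibialis anterior muscle of the hindlimb. Mononucleated cells of both hindlimbs were sorted without the dead cells that take up propidium iodide and captured with the 10x Genomics Chromium 3′ v3.1 chemistry. There were 6 groups of 1 library each: uninjured muscle (day 0), 1 day after injury and 3 days after injury, each collected at zeitgeber time 4 (ZT4, 4 hours after lights on) or at ZT16 (in the dark phase under the usual cycle). Both day 1 groups were wildtype and injured, and differed by label only in collection time. The labels used here give no strain, sex, age or number of animals. With 1 library per group, no test between groups was run and no p-value is given, and the intervals cover counting error only.

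The day 1 libraries held 72747703 UMIs (ZT4) and 96690582 UMIs (ZT16), and a kept barcode had a median of 3905 and 5879 UMIs. Members were deep: their median was 11947.5 UMIs and 3035 genes at ZT4, and 15031.5 UMIs and 3403 genes at ZT16. A doublet score marked 14.0% and 13.9% of the members, against 8.79% and 8.98% of all kept barcodes. A UMI of Csf3r, Cxcr2, Retnlg or Mmp8, which are neutrophil genes, was present in 39.7% and 39.6% of the members. In cells taken by the same rule on day 3 the share was 42.3% and 45.1%. Yet the neutrophil rule given below took only 112 and 80 cells on day 3, against 2882 and 2662 on day 1. The source of these UMIs was not tested. The day 1 libraries shared 48 barcodes, of which 1 was a member in both.

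The cells carried the genes of macrophages. F4/80 (Adgre1) stood at 213 CPM in the ZT4 members and 244 CPM in the ZT16 members, where CPM is UMIs per 1000000 UMIs summed over the population. The lysosomal marker Cd68 had 728 and 754 CPM and the Fc receptor Fcgr1 365 and 345 CPM. Cd68 was found in 96.8% and 98.6% of members. In endothelial cells of the same libraries, which should lack it, it was found in 9.05% and 7.05% of cells at median depths of 3966.5 and 4615.5 UMIs. With every cell reduced at random to 1000 UMIs these shares were 48.4% and 50.6% in members against 2.27% and 1.84% in endothelial cells. The rules asked for Csf1r, Ccr2 and Ms4a6c UMIs in members and for none in endothelial cells, so this contrast follows in part from them. Against monocytes of the same libraries, 3 of 15 pan-macrophage and monocyte genes were at least 2-fold higher in both libraries and none lower. Their median log2 ratios were 0.30 and 0.11, and 4.74% of all genes tested were higher. Most of these 15 genes thus did not set members apart from monocytes.

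Arg1 (chr10:24915221-24927484, minus strand, GRCm38) was high on day 1 and close to absent on the other days. Over all kept barcodes it had 2.29 CPM (ZT4) and 1.68 CPM (ZT16) in uninjured muscle, 723 and 544 CPM on day 1, and 4.10 and 2.55 CPM on day 3. Both day 1 libraries were high, and the other 4 were low without overlap. In the members of the ZT4 and ZT16 libraries Arg1 stood at 1628 and 934 CPM, Pf4 (chr5:90772435-90773383, plus strand) at 7793 and 6640 CPM, and Spp1 (chr5:104435118-104441050, plus strand) at 3685 and 3941 CPM. A member had a median of 11 and 6 Arg1 UMIs, 65 and 73 Pf4 UMIs, and 13 and 15 Spp1 UMIs. All 3 genes were present together in 59.5% and 59.6% of members, a pair of them in 28.8% and 30.2%, and 1 alone in 11.7% and 10.2%. The rule could be met by Pf4 alone in 81.9% and 87.1% of members, by Arg1 alone in 63.4% and 53.1%, and by Spp1 alone in 63.8% and 64.3%. Spp1 was the most unevenly spread: the 10% of cells with the most Spp1 held 55.9% and 56.6% of its UMIs, against 33.5% and 32.7% for Pf4 and 40.2% and 45.3% for Arg1.

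Few barcodes lay near the threshold of 5 UMIs. In the ZT4 library 22 and 6 barcodes that met the other conditions had 3 and 4 UMIs of the 3 genes, while 19, 9 and 18 members had 5, 6 and 7. The ZT16 counts were 23 and 22 just outside and 20, 17 and 15 just inside. Hmox1, which the rule does not use, was at 409 and 70.1 CPM just outside and 661, 109 and 329 CPM just inside at ZT4, and at 176 and 236 CPM outside against 74.0, 201 and 185 CPM inside at ZT16. Levels on either side of the threshold overlapped.

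Ppbp (chr5:90768518-90770063, plus strand) ranked first of the genes outside the rule that were found in at least 10% of members and were higher than in monocytes. It had 565 CPM in the ZT4 members and 299 CPM in the ZT16 members, against 26.9 and 6.69 CPM in monocytes, 2.64 and 3.15 CPM in neutrophils, and 6.73 and 2.49 CPM in endothelial cells of the same libraries. The members were higher in both libraries, by a log2 ratio of 4.39 (95% interval 4.26 to 4.53) at ZT4 and 5.47 (5.20 to 5.78) at ZT16. A Ppbp UMI was present in 41.0% and 34.5% of members, and in 20.7% and 13.8% with every cell reduced to 1000 UMIs. The reduced shares were 1.17% and 0.31% in monocytes and 0.24% and 0.41% in neutrophils. Within the members, Pf4 was found in 99.3% and 98.4% of cells with a Ppbp UMI and in 79.9% and 86.3% of cells without one, each cell being reduced to 3000 UMIs (65 and 27 shallower members left out).

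Ppbp and Pf4 are platelet genes, and the other platelet genes were near 0 in the members. The remaining 16 platelet and megakaryocyte genes summed to 3.81 CPM at ZT4 and 2.50 CPM at ZT16, the highest being the transcription factor Nfe2 at 1.55 and 1.54 CPM, and 6 of the 16 were at 0 in each library, among them Gp9, Gp1bb, Tubb1 and Gata1 in both. At least 1 UMI of a set of 10 platelet genes that included Itga2b, Gp9, Gp5 and Tubb1 was present in 25 and 24 members, which is 0.99% and 0.69%.

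Pf4 and Ppbp lie in a chemokine gene cluster on chromosome 5, and the cluster was followed gene by gene after these values were seen. Cxcl5, Ppbp, Pf4, Cxcl3, Cxcl1 and Cxcl2 lie in that order on the plus strand over 146.578 kb (chr5:90759360-90905938, GRCm38). Counted from the start of Pf4, Ppbp starts at -3.917 kb and Cxcl3 at 13.668 kb. The products of Cxcl1, Cxcl2, Cxcl3 and Cxcl5 draw neutrophils through the receptor Cxcr2. Promoters are shown of Pf4, which helped to choose the cells, and of its neighbours Ppbp and Cxcl3, the leading genes among those lower on day 3. They are RefSeq sequences (GRCm38.p6, plus strand, 250 bases before to 50 bases after the gene start). Capitals mark matches on either strand to AGATAA, a site of GATA factors, to TATAAA, the TATA box, to ACGTG, the hypoxia response core, and to TGANTCA, an AP-1 site.
Ppbp, chr5:90768268-90768567: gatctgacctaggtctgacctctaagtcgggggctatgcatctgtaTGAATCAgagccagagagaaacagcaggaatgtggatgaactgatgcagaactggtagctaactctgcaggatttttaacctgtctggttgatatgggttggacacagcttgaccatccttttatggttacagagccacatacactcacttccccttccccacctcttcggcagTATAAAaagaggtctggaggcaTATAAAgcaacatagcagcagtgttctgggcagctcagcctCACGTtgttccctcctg
Pf4, chr5:90772185-90772484: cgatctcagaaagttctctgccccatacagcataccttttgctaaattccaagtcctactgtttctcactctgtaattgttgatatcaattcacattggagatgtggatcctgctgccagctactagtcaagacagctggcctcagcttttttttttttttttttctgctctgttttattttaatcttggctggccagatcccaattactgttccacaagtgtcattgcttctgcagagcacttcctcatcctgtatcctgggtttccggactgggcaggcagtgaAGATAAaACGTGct
Cxcl3, chr5:90785851-90786150: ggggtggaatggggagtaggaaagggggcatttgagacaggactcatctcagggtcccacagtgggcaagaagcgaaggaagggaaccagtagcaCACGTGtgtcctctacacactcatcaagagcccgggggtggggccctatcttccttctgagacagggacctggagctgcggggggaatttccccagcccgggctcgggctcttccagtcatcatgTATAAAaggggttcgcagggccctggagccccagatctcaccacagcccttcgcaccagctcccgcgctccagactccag
The Ppbp window held 2 TATA matches, 1 ACGTG match and 1 AP-1 match. The Pf4 window held 1 GATA match and 1 ACGTG match and no TATA match. The Cxcl3 window held 1 TATA match and 2 ACGTG matches that overlap on the opposite strands of 1 palindrome. Of 32851 RefSeq promoter windows, 11.2% held the GATA letters, 13.6% the TATA letters, 19.6% the ACGTG letters and 7.81% the AP-1 letters. A match is a description of these letters and does not show that a factor bound there.

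Cxcl3 had 315 CPM in the ZT4 members and 226 CPM in the ZT16 members, against 64.9 and 58.5 CPM in monocytes, which are log2 ratios of 2.28 and 1.95. It was found in 41.4% and 33.1% of members with a Ppbp UMI and in 22.5% and 18.4% of those without, at 3000 UMIs a cell. Cxcl1 stood at 147 and 164 CPM against 50.1 and 51.0 CPM (1.55 and 1.69). Cxcl2 had 4251 and 3405 CPM against 2052 and 1991 CPM (1.05 and 0.77), so it passed 2-fold only at ZT4, and neutrophils held more of it, 12520 and 8090 CPM. Cxcl5 differed between libraries: 41.3 CPM against 0.498 CPM in monocytes at ZT4, but 7.70 against 8.76 CPM at ZT16. Its UMIs sat in few cells. Only 77 and 64 members had any, and 1% of members held 94.0% and 93.0% of them.

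Hmox1 (chr8:75093621-75100589, plus strand) had 1104 CPM in the ZT4 members and 912 CPM in the ZT16 members. Monocytes had 263 and 287 CPM, neutrophils 114 and 85.7 CPM, and the cells of the same gate on day 3 had 212 and 197 CPM. Members were the highest of these populations in both libraries, with log2 ratios over monocytes of 2.07 and 1.67.

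**Figure D1:**
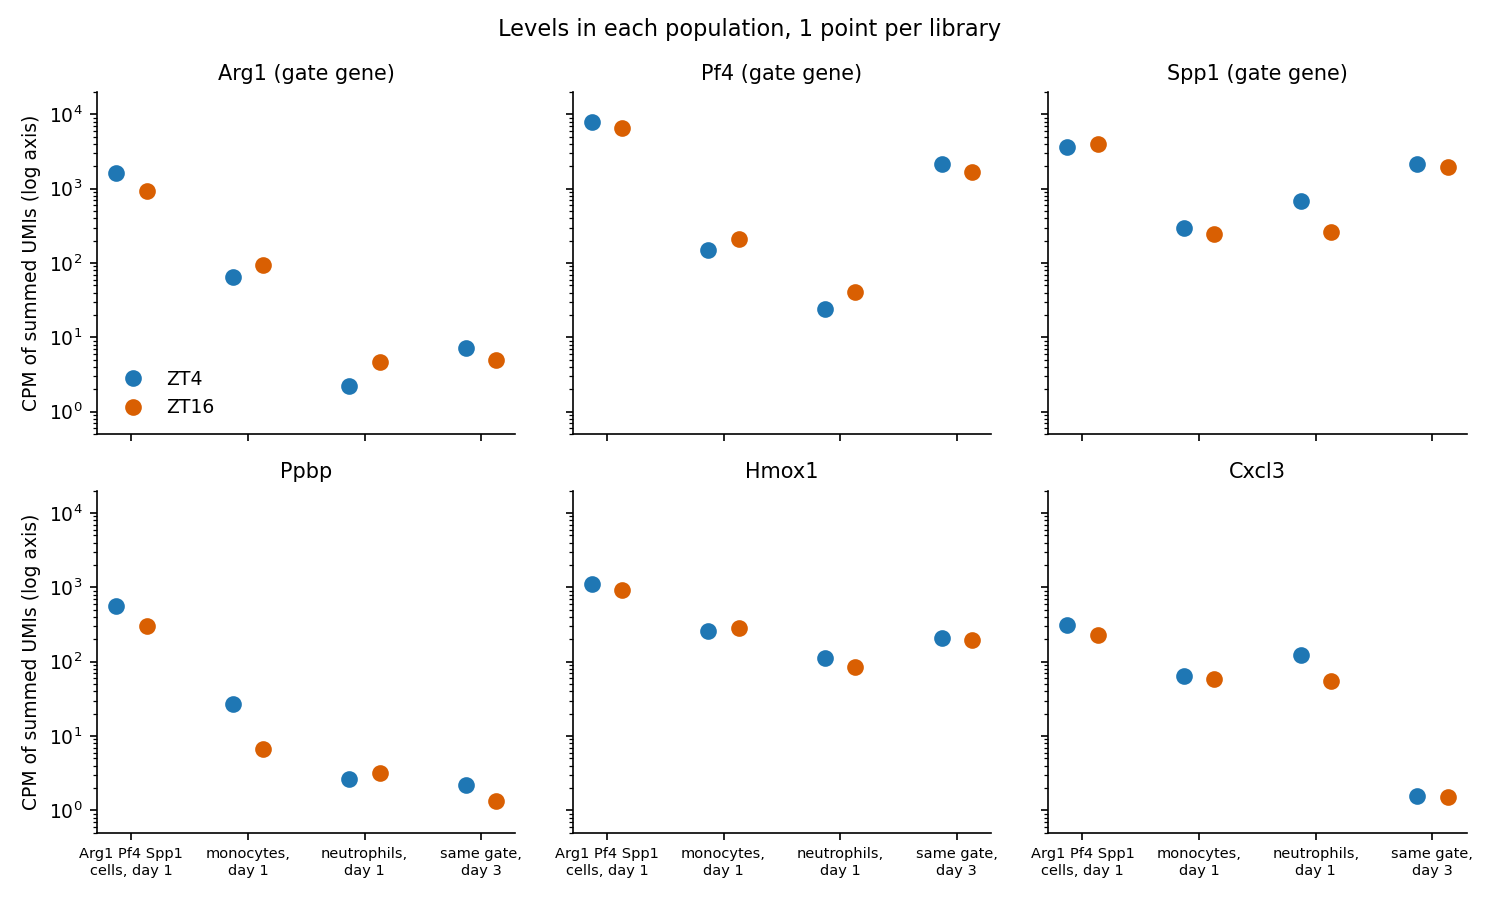
Levels of 6 genes as CPM of summed UMIs (log axis) in the Arg1 Pf4 Spp1 cells, monocytes and neutrophils of day 1 and in the cells of the same gate on day 3, with 1 point per library (blue ZT4, orange ZT16). Arg1, Pf4 and Spp1 are gate genes; Ppbp ran from 299 to 565 CPM in the members and from 1.36 to 26.9 CPM in the other populations.

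Members made up 22.9% of kept barcodes at ZT4 (exact 95% interval 22.1 to 23.7) and 30.8% at ZT16 (29.98 to 31.70), a log2 ratio of 0.43 (0.35 to 0.50). Of barcodes with at least 2 UMIs of Csf1r, Ccr2 and Ms4a6c they were 48.4% and 62.7%. Because the rule counts raw UMIs it favours deep cells, and the ZT16 library was the deeper. With every barcode reduced to 2000 UMIs and shallower ones left out, the shares of kept barcodes were 18.8% and 22.9% (log2 ratio 0.29). On day 3 the same gate took 41.6% and 38.5% of kept barcodes, a log2 ratio of the opposite sign, -0.11. In single libraries a difference between collection times and a difference between animals or preparations cannot be told apart, and a larger share cannot be told apart from a smaller share of other cells.

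The members were of mixed character in the genes of resident macrophages, the cells that live in muscle before injury. Lyve1, Cd163, Timd4, Folr2 and Cbr2 together had at least 2 UMIs in 941 members at ZT4 (37.4%) and 1852 at ZT16 (53.5%). Among these 5 genes, Cbr2 stood at 132 and 168 CPM in the members and Folr2 at 73.5 and 93.7 CPM. Lyve1 was found in only 10 and 55 members and Cd163 in 222 and 452. A member with 2 or more of these UMIs thus need not carry Lyve1 or Cd163. At 3000 UMIs a cell the shares were 14.4% and 19.5%. As a share of kept barcodes, members with these markers were 8.57% and 16.5%, and members without them 14.3% and 14.4%. Depth moved with this split, the median being 13475 and 16199 UMIs with the markers and 11042 and 13699.5 without. At 3000 UMIs a cell, members with the markers were 3.20% and 5.97% of kept barcodes and members without them 19.1% and 24.6%, so the equal share of members without markers was a property of the unreduced counts, and both kinds made up more of the ZT16 library when the markers, though not the gate itself, were read at equal depth.

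Both kinds of member carried Arg1. With fewer than 2 resident-marker UMIs Arg1 was at 1762 CPM (ZT4) and 1144 CPM (ZT16), and with 2 or more at 1448 and 780 CPM. Pf4 went the other way, with 5646 and 4308 CPM in cells without the markers and 10673 and 8356 CPM in cells with them. Ppbp was at 499 and 226 CPM without and 653 and 353 CPM with the markers, and Hmox1 at 942 and 789 CPM without and 1323 and 1003 CPM with them. Spp1 was at 4725 and 5400 CPM without and 2290 and 2869 CPM with them. The mannose receptor Mrc1 had 538 and 309 CPM without and 1295 and 900 CPM with the markers. Ccr2, the receptor by which monocytes leave the marrow, hardly differed, with 686 and 590 CPM against 658 and 629 CPM, but it is a gate gene.

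Complement C1q, the recognition part of the classical pathway and a product of mature macrophages, divided the members more sharply. This division was chosen after its values were seen. C1qa, C1qb and C1qc together had 0 UMIs in 48.3% of members at ZT4 and 39.6% at ZT16, 1 UMI in 3.38% and 4.68%, and 10 or more in 41.3% and 49.2%. Few cells lay between the ends. At 3000 UMIs a cell, 47.6% and 54.3% of members had at least 1. The same gate found a C1q UMI in 98.9% and 98.8% of its cells in uninjured muscle and in 95.7% and 96.4% on day 3, so cells without C1q were a small share of the gate on the other days. C1qa alone was found in 27.3% and 31.6% of members and in 0.14% and 0.57% of neutrophils at 1000 UMIs a cell.

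Members with no C1q UMI were higher in Cxcl3, with 419 and 325 CPM against 226 and 159 CPM in members with 2 or more (log2 ratios 0.89 and 1.03), and in the macrophage growth factor Csf1, with 50.4 and 24.8 CPM against 24.2 and 12.2 CPM. Angiogenic Vegfa had 108 and 55.8 CPM against 64.0 and 27.6 CPM. Asprv1 (14.2 and 8.32 CPM) and Pvalb (5.60 and 7.35 CPM) also led in these cells at low levels, as did Cxcl5 in its few cells. Neutrophils held more Asprv1, 561 and 470 CPM, and the source of Asprv1 and Pvalb RNA in these members was not tested. Members with 2 or more C1q UMIs were higher in the chemokine Ccl8 (269 and 202 CPM against 76.0 and 34.1), in Gas6, a ligand that bridges dying cells to Axl and Mertk (36.0 and 45.0 CPM against 12.5 and 17.9), and in the haemoglobin scavenger receptor Cd163 (28.4 and 34.1 CPM against 11.9 and 15.2). Npl and Itga9 also led there. Ppbp did not follow C1q closely: it had 622 and 332 CPM in cells without C1q and 518 and 284 CPM in cells with it.

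**Figure D2:**
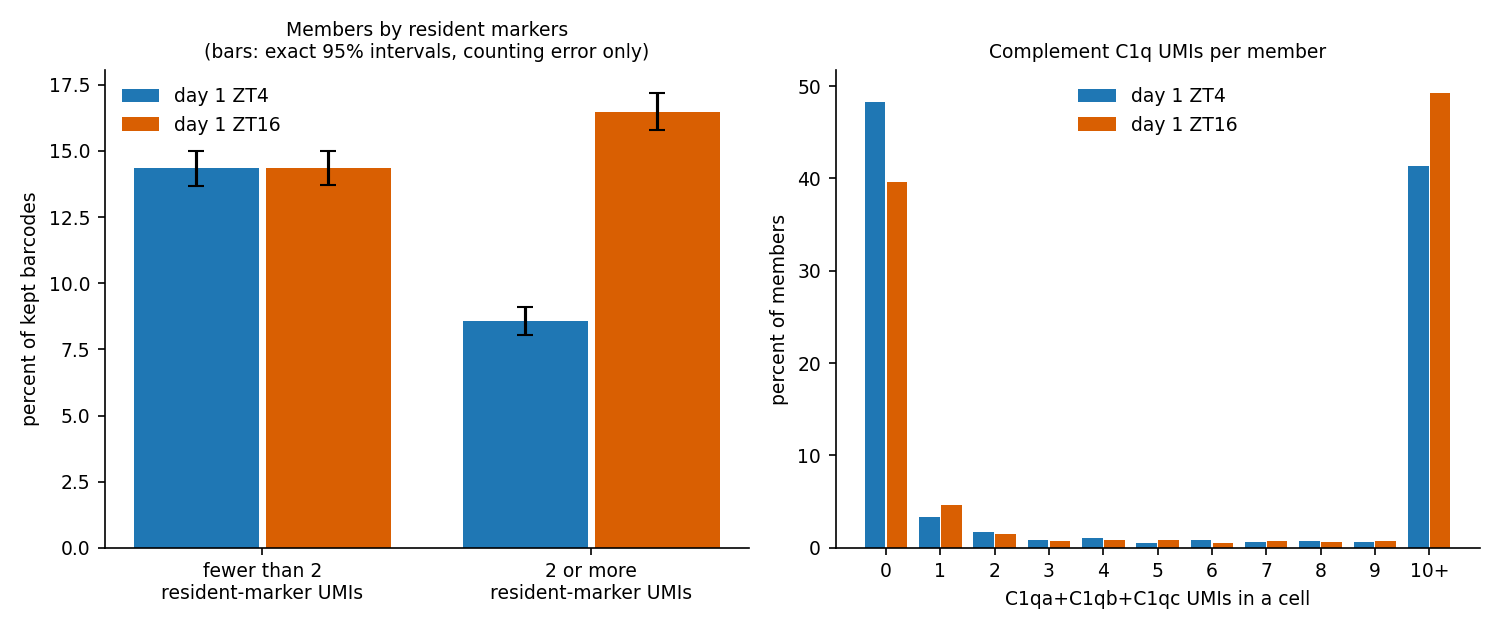
Left, members as a percentage of kept barcodes by resident-marker UMIs, with bars for exact 95% intervals of counting error. Right, percentage of members by C1qa+C1qb+C1qc UMIs in the cell, the last bin holding 10 and more; the end bins hold 48.3% and 41.3% of members at ZT4 (blue) and 39.6% and 49.2% at ZT16 (orange).

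Some genes went with the Arg1 content of the cell and others did not. For this, all myeloid-gated barcodes without Cd209a were reduced to 3000 UMIs and set in 4 bins of 0, 1 to 2, 3 to 9 and 10 or more Arg1 UMIs; the bin of 0 also holds the monocytes without Arg1. Ppbp was at 81.7, 376, 675 and 1081 CPM over the bins at ZT4 and at 99.3, 260, 351 and 664 CPM at ZT16. Fibronectin (Fn1), a provisional matrix protein, was at 1600, 2371, 3306 and 4579 CPM and at 1424, 2368, 2920 and 3890 CPM. Cxcl3 was at 90.6, 269, 339 and 629 CPM and at 91.9, 209, 329 and 538 CPM. All 3 genes were higher at each step in both libraries. Hmox1 was higher up to the third bin and not beyond, with 478, 892, 1122 and 1083 CPM at ZT4 and 525, 868, 907 and 835 CPM at ZT16. The resident marker Folr2 was highest in the second bin and lower in the highest, with 20.9, 66.9, 65.1 and 58.7 CPM at ZT4 and 55.8, 83.7, 77.6 and 47.3 CPM at ZT16. Mrc1 had the same shape, with 380, 877, 720 and 540 CPM and with 480, 621, 405 and 286 CPM. C1qa was also lower in the highest bin than in the third, with 535 against 646 CPM and 430 against 716 CPM. The monocyte gene Ly6c2 was lower at each step, from 382 to 60.3 CPM and from 162 to 25.5 CPM. The bins were of unequal size, with 437 and 261 cells in the highest, and cells of a bin share a library.

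When members were divided by which of the 3 gate genes had the most UMIs in the cell, Pf4 led in 64.5% and 65.6%, Spp1 in 27.3% and 29.0%, and Arg1 in 7.63% and 4.91% (192 and 170 cells). Cells led by Pf4 had Mrc1 at 1173 and 874 CPM, Ccl8 at 253 and 186 CPM, Cd163 at 29.8 and 38.8 CPM and the gap junction gene Gja1 at 76.9 and 42.5 CPM. They also held most of Ppbp, 775 and 387 CPM, against 145 and 135 CPM in cells led by Spp1 and 154 and 80.2 CPM in cells led by Arg1. In cells led by Spp1 the tetraspanin Cd9 was at 472 and 452 CPM against 86.2 and 99.1 CPM in cells led by Pf4, and Gpnmb at 254 and 307 CPM against 65.4 and 76.2 CPM in cells led by Pf4. Coagulation factor X (F10) was at 285 and 143 CPM, and AA467197 and Npy also led there. Vegfa had 130 and 59.5 CPM in cells led by Spp1, 145 and 73.5 CPM in those led by Arg1 and 59.4 and 28.2 CPM in those led by Pf4. The collagen genes Col3a1, Col1a1 and Col1a2 and decorin (Dcn) stood highest in the Arg1-led cells, but Col3a1 was found in only 1.04% and 1.18% of them and Dcn in 0.52% and 1.18%. The fifth leading gene, the elastase Mmp12, was in 3.12% and 0.59% of them, so these 5 genes describe few cells.

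To place the members beside the other main cells of the myeloid gate, they were compared within each library with monocytes: 1960 cells at ZT4 and 1293 at ZT16 chosen by the mirror rule, in which Plac8, Chil3 and Vcan had at least 5 UMIs and more than Arg1, Pf4 and Spp1. A gene was called when its CPM differed at least 2-fold the same way in both libraries, over genes with at least 30 UMIs in the populations together in each. Of 11244 genes, 4.74% were higher and 3.04% lower in members, and the median log2 ratio was 0.17 at ZT4 and 0.10 at ZT16. Opposed rules chose the populations, so these ratios describe them and nothing is read from the counts, which became 422 higher and 433 lower, in place of 533 and 342, when ratios were centred on their median. Members were also the deeper cells, with medians of 11947.5 and 15031.5 UMIs against 8938.5 and 10981.

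Resident macrophage genes were higher, in 8 of 11 measured, with none lower (medians 2.90 and 2.33). Folr2, a folate receptor, had 73.5 and 93.7 CPM against 2.99 and 8.03 CPM, and the carbonyl reductase Cbr2 132 and 168 CPM against 10.1 and 27.7 CPM. Ccl8 had 185 and 132 CPM against 4.32 and 1.07 CPM. Lyve1, a hyaluronan receptor, had 1.23 and 3.23 CPM while monocytes had 0 UMIs, so it was at least 7.40-fold and 16.1-fold higher, counting 3 UMIs per monocyte library as the floor. Only 10 and 55 members had a Lyve1 UMI, and 1% of members held 100% and 88.5% of its UMIs, so Lyve1 describes few members. Mrc1, Cd163, Gas6 and Stab1 completed the 8. Without the members that carry at least 2 UMIs of the 5 resident markers, 312 genes in place of 533 were higher, and Folr2, Cbr2 and Cd163, which that step removes by design, were no longer higher at ZT16.

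Lipid-handling genes were higher in 16 of 28, with none lower (medians 1.57 and 1.20). The fatty acid transporter Cd36 had 267 and 287 CPM against 29.6 and 45.0 CPM (log2 ratios 3.17 and 2.67). Gpnmb, a lysosomal glycoprotein, had 119 and 143 CPM against 16.2 and 23.5 CPM, and the lipid receptor Trem2 323 and 441 CPM against 94.7 and 151 CPM. Apolipoprotein E (Apoe) stood at 3361 and 5053 CPM against 1320 and 2210 CPM. The fatty acid binding protein Fabp5, lipoprotein lipase Lpl, lysosomal lipase Lipa and cathepsins Ctsb, Ctsd and Ctsk were among the 16.

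In the iron and haem list 6 of 22 were higher and 1, Lcn2, was lower (medians 0.82 and 0.56). Besides Hmox1 these were the haem transporter Slc48a1 (91.2 and 87.3 CPM against 29.6 and 29.5), the transferrin receptor Tfrc (33.4 and 33.0 CPM against 11.1 and 13.2), Cd163, Hebp1 and the iron exporter Slc40a1. Slc40a1 was low, at 4.65 and 4.92 CPM against 1.60 and 2.14 CPM, and neutrophils held 76.8 and 80.5 CPM. The ferritin genes did not pass in both libraries: Fth1 had log2 ratios of 1.31 and 0.88 and Ftl1 of 1.06 and 0.71.

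Few other genes of the Arg1 pathway passed. Of 19 other arginine and polyamine genes 2 were higher, namely Odc1, the ornithine decarboxylase that starts polyamine synthesis (221 and 202 CPM against 98.2 and 97.8), and the creatine enzyme Gatm. Smox, the spermine oxidase, was lower, and the median was -0.01 and -0.03.

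Among secreted factors, 7 of 20 growth factor genes were higher and 1, Nrg1, was lower. Igf1, a growth factor for muscle, had 14.4 and 18.7 CPM against 0.775 and 1.47 CPM, Pdgfa 22.5 and 25.7 CPM against 4.26 and 9.36 CPM, and Gdf3 15.2 and 22.6 CPM against 3.82 and 8.29 CPM. Pdgfc, Gdf15, Bmp2 and progranulin (Grn) were the others. In the matrix list 6 of 21 were higher and none lower: Mmp12, Mmp14, Mmp27, Timp2, Ctsk and Plod1. Of 20 coagulation and plasmin genes 6 were higher, among them factor VII (F7, 41.0 and 34.0 CPM against 4.76 and 8.16) and urokinase (Plau, 38.1 and 45.0 CPM against 7.08 and 12.9), and F5 and Serpinb2 were lower. Of the CC chemokines, Ccl7 and Ccl8 were higher out of 14. In the complement list, C1qa, C1qb, C1qc and Cd59a were higher and C3 was lower out of 14.

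Genes of monocytes and of antigen presentation were lower. Monocyte genes were lower in 9 of 13 and higher in none (medians -2.21 and -1.84), with Ly6c2 at 76.8 and 52.6 CPM against 508 and 268 CPM and haptoglobin (Hp) at 89.8 and 62.9 CPM against 571 and 332 CPM. Antigen presentation genes were lower in 6 of 17 and higher in none, with H2-Aa at 236 and 234 CPM against 569 and 903 CPM and its master regulator Ciita at 1.84 and 1.21 CPM against 12.6 and 16.5 CPM. Of 32 glycolysis and hypoxia genes 1, the lipid droplet gene Hilpda, was higher (179 and 111 CPM against 53.9 and 37.1) and none was lower.

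Ranked by the bound of the ratio nearest to no change, the leading genes after Ppbp and Folr2 were Syngr1 (91.9 and 129 CPM against 4.81 and 11.9), Gas6, Fcrls, podoplanin (Pdpn, 250 and 148 CPM against 27.5 and 18.9), the fatty acid transport protein Slc27a1, the ectoenzyme Enpp1 (43.0 and 43.5 CPM against 5.37 and 5.82), Cd36, the creatine transporter Slc6a8, Cbr2, Gpnmb, the Notch ligand Jag1, Sox4 and Tns1. Among the genes furthest below were Adgre4 (1.29 and 0.631 CPM against 24.7 and 11.6), Ifitm6 (42.6 and 15.9 CPM against 521 and 231), Ear2, the integrin Itgal, Dmkn, Rnase6, Klra2, Hp and Napsa.

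**Figure D3:**
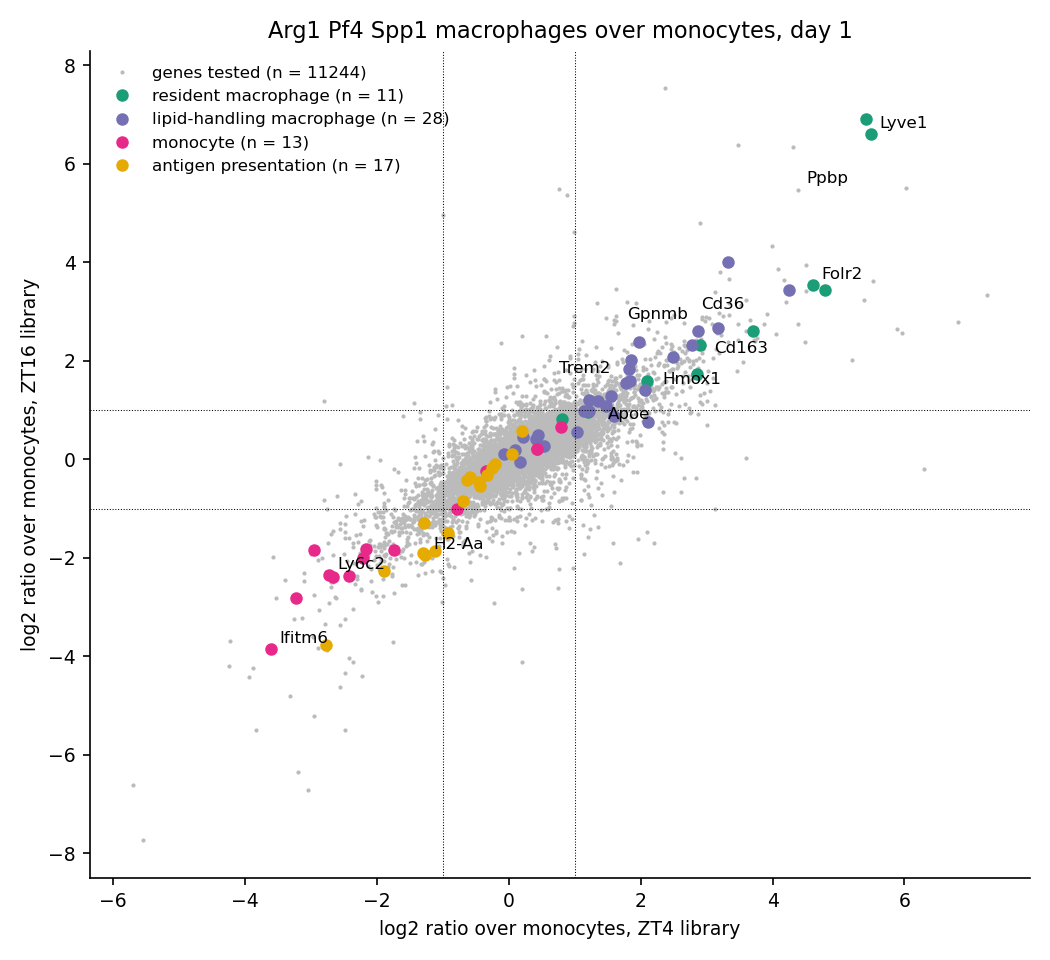
Log2 ratio of CPM in members over monocytes in the ZT4 library (x) and the ZT16 library (y), 1 point per gene, with 4 gene lists in colour and dotted lines at 2-fold. Resident macrophage and lipid-handling genes lie toward the upper right and monocyte genes toward the lower left; Lyve1 rests on the 0.5 UMIs added to every count, since monocytes had 0 UMIs of it.

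Between collection times, the members of the ZT16 library had lower levels of genes of hypoxia, the oxidant response and interferon than those of the ZT4 library, and higher levels of Zfp36, Cebpb and Apoe. A gene was called when it differed at least 1.5-fold, over 12006 genes with at least 30 UMIs in the libraries together, of which 4.58% were higher and 7.73% lower at ZT16. The median log2 ratio was -0.04. Each value compares 1 library with 1 library. The excess of lower genes (928 against 550) depended on the processing: 637 genes were higher and 794 lower with ratios centred on that median, and 679 higher and 589 lower without the 1% of cells richest in each gene, a step that also leaves some genes under the UMI minimum.

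Of 34 glycolysis and hypoxia genes 11 were lower and none higher (median -0.35). Vegfa fell from 83.7 CPM at ZT4 to 39.3 CPM at ZT16 (log2 ratio -1.09, interval -1.17 to -1.01), and Hif1a, the oxygen-regulated transcription factor, from 533 to 261 CPM. The lactate exporter Slc16a3 fell from 105 to 56.1 CPM, enolase (Eno1) from 536 to 308 CPM, and the glucose transporter Slc2a1 from 42.6 to 28.1 CPM. Pdk1, Bnip3, Egln3, Ndrg1, Ddit4 and Hilpda were the others. Lactate dehydrogenase Ldha, at 474 and 421 CPM, and Pgk1, at 370 and 267 CPM, did not pass. The monocytes of the same libraries gave 4 lower and 2 higher of 33 (median 0.14; 9.77% of all 10676 genes measured in monocytes were higher and 7.84% lower), with Vegfa (-0.83), Hif1a (-0.70), Slc16a3 (-0.71) and Ndrg1 lower, so these 4 were lower in both populations. The difference between the populations was not tested. In members the lower level was present among members with no C1q UMI (11 of 32 lower, median -0.49, against 7.12% of all genes) and among those with 2 or more (9 of 32 lower, median -0.34, against 6.85%).

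Antioxidant genes were lower in 7 of 22 and higher in none (median -0.34). Slc7a11, the cystine importer that feeds glutathione synthesis, fell from 129 to 35.7 CPM (log2 ratio -1.85), and also in monocytes (-1.62) and neutrophils (-1.08). Neutrophils held more Slc7a11, 992 and 470 CPM, and monocytes held 113 and 36.8 CPM. The part of neutrophil RNA in the fall of Slc7a11 was not tested. Thioredoxin reductase Txnrd1 fell from 187 to 120 CPM and Prdx6 from 427 to 274 CPM. Nqo1, Gsr, Mt2 and Sqstm1 completed the list. Hmox1 did not pass, with a log2 ratio of -0.28 (-0.30 to -0.26). Among members with no C1q UMI 6 of 20 antioxidant genes were lower (median -0.34, against 7.12% of all genes). Among those with 2 or more, 3 of 20 were lower (median -0.30, against 6.85%).

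Interferon response genes were lower in 7 of 19 (median -0.43), with Rsad2 at 49.2 and 16.7 CPM and Ifit2 at 7.08 and 1.76 CPM. In monocytes 3 of 19 were lower (median -0.40), against 7.84% of all genes measured there. Among members with no C1q UMI 10 of 19 were lower (median -0.61, against 7.12% of all genes). Among those with 2 or more, 3 of 19 were lower (median -0.29, against 6.85%). Over all members, neutrophil genes were lower in 12 of 17 (median -0.83): S100a8 had 645 and 292 CPM, S100a9 553 and 293 CPM and Acod1 30.5 and 8.16 CPM. The summed level of the neutrophil list in members was 3052 CPM at ZT4 and 2133 CPM at ZT16, against 84710 and 72367 CPM in the neutrophils themselves. The members' sums include Wfdc17 at 932 and 1002 CPM, which was not lower at ZT16 and stood at 1119 and 1014 CPM in monocytes. Without barcodes that carry a UMI of Csf3r, Cxcr2, Retnlg or Mmp8, 744 genes were lower at ZT16 in place of 928, and 550 were higher as before. That step also leaves fewer cells, and the part of neutrophil RNA in these differences was not tested further.

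Of 21 growth factor genes 6 were lower: Vegfa, Inhba (9.92 to 2.67 CPM), the EGF receptor ligands Areg (69.0 to 34.0 CPM) and Ereg, Csf1 (35.8 to 16.9 CPM) and Nrg1, and 1, Bmp2, was higher. The membrane collagenase Mmp14 fell from 104 to 42.0 CPM, and Mmp9, Mmp13 and Timp1 were also lower in the matrix list, where Timp3 was higher (21 measured). Ppbp fell from 565 to 299 CPM (log2 ratio -0.92, interval -0.95 to -0.89), and it and Cxcl5 were the 2 lower of 12 CXC chemokine genes. The interleukin 1 receptor antagonist Il1rn fell from 330 to 180 CPM.

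Ccl2, the main attractant of Ccr2-bearing monocytes, rose from 2327 to 3738 CPM (log2 ratio 0.68, and 1.58 in monocytes), and Ccl17 was higher too. Lower among the 15 CC chemokine genes were Ccl5, Ccl22, Ccl24 (258 to 143 CPM) and Ccr7. Zfp36, which destabilises cytokine mRNAs, rose from 355 to 687 CPM, Cebpb from 1061 to 1775 CPM and the glucocorticoid target Tsc22d3 from 51.5 to 78.4 CPM. These 3 genes were higher by similar ratios in the monocytes and neutrophils of the ZT16 library. Il10 rose from 12.5 to 20.7 CPM, but among members with fewer than 2 resident-marker UMIs its log2 ratio was -0.05. Apoe rose from 3361 to 5053 CPM and Lpl from 169 to 304 CPM, 2 of 28 lipid-handling genes (median 0.05), with Abca1 lower. In monocytes of the same libraries Apoe and Lpl were also higher and Abca1 lower. There 8 of 27 lipid-handling genes were higher (median 0.38, against 9.77% of all genes), so these changes were not particular to members. All 15 pan-macrophage genes stayed within 1.5-fold (median 0.00).

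Of 17 clock genes 2 were higher and 3 lower at ZT16. Per2, a repressor of the clock, rose from 1.16 to 4.06 CPM (log2 ratio 1.79, interval 1.29 to 2.36), and its log2 ratio was 1.60 in the day 3 cells and -0.07 in neutrophils, while monocytes had 8 and 18 UMIs, too few to be called. Dbp had 4.91 and 7.53 CPM. The repressors Nr1d1 (3.13 and 1.84 CPM) and Nr1d2 (11.1 and 6.68 CPM) and the activator Rora (3.17 and 1.84 CPM) were lower. Arntl (-0.37), Clock (-0.07), Per1 (-0.16) and Cry1 (0.38) did not pass. These were low counts.

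The genes with the largest ratios between libraries were of a different kind. Tppp3, a tubulin-binding protein, was broad: it rose from 66.8 CPM in 733 members to 186 CPM in 1780 members (log2 ratio 1.47) with 0.02 in monocytes and 1.91 in neutrophils, where it was low (1.19 and 4.65 CPM). The red cell genes Hbb-bt, Hbb-bs, Hba-a1 and Hba-a2 were the 4 highest, yet Hbb-bs was found in 12 and 45 members only, with 2243 of its 5008 ZT16 UMIs in 1 cell. Apod (3 and 7 cells), Tagln (6 and 11), Csrp3 (18 and 56) and, on the lower side, Il33 (6 and 7) and Cxcl5 were likewise few-cell genes. Rpa3 (6.98 to 22.5 CPM) and Rnaset2a (9.86 to 30.7 CPM) were higher by like ratios in monocytes and neutrophils, and Slc15a2 went from 5.40 to 0.0371 CPM, with 0 UMIs in ZT16 monocytes and neutrophils. Over all kept barcodes of day 1, Rpa3 had 6.57 and 23.6 CPM, Rnaset2a 10.8 and 30.2 CPM and Slc15a2 7.95 and 0.0312 CPM. These 3 genes thus differed in the library totals as well. In cells of the same gate Rnaset2a was found in 10.9% and 36.8% on day 1. It was in 35.1% and 35.4% on day 0 and 39.9% and 39.9% on day 3. The shares of Rpa3 were 7.95% and 28.5%, 19.4% and 19.2%, and 28.9% and 21.3% in that order. Those of Slc15a2 were 5.48% and 0.0577%, 20.5% and 10.8%, and 1.77% and 3.18%. For Rnaset2a and Rpa3 the rise at ZT16 was seen on day 1 only. Whether such library differences enter other genes was not tested. The other genes lowest at ZT16 were Lpar1, Adamts5, Chil1, Slc7a11, Il1f9, Acod1 and Upp1.

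**Figure D4:**
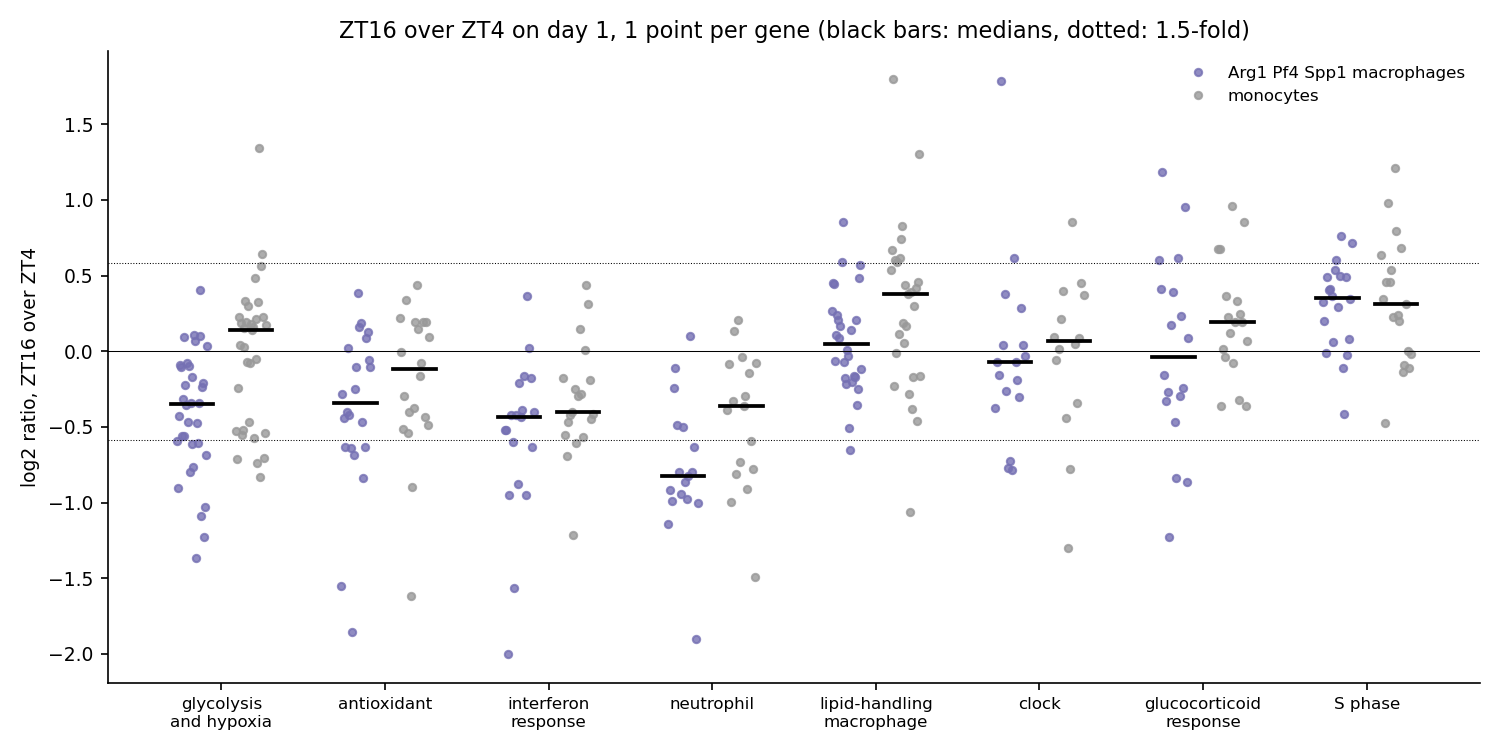
Log2 ratio of ZT16 over ZT4 for genes of 8 lists, 1 point per gene, in members and in monocytes of day 1, with black bars at list medians and dotted lines at 1.5-fold. In members the glycolysis and hypoxia, antioxidant and interferon medians lie at -0.35, -0.34 and -0.43; in monocytes they lie at 0.14, -0.12 and -0.40.

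By day 3 the same gate found macrophages of another kind. It took 3944 cells at ZT4 and 3143 at ZT16 with median depths of 12969.5 and 13057 UMIs. Arg1 was at 7.13 and 5.02 CPM, present in 3.93% and 3.82% of cells, while Pf4 was at 2117 and 1694 CPM and Spp1 at 2161 and 1943 CPM, so day 3 cells entered the gate by Pf4 and Spp1. All 3 genes were present together in 3.25% and 3.15% of them, against 59.5% and 59.6% on day 1. Resident markers had at least 2 UMIs in 61.8% and 59.9%. A gene was called when day 3 differed from day 1 at least 2-fold the same way at both collection times. Of 12749 genes 17.2% were higher and 4.14% lower on day 3 (medians 0.15 and 0.16). With barcodes reduced to 2000 UMIs before gating, 1309 in place of 2191 were higher.

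Ppbp and Cxcl3 led the genes that were lower on day 3, and many CC chemokine, inflammatory cytokine and neutrophil genes were lower with them. Ppbp fell from 565 and 299 CPM to 2.17 and 1.36 CPM (log2 ratios -8.02 and -7.77), and Cxcl3 from 315 and 226 CPM to 1.58 and 1.49 CPM (-7.64 and -7.23). Cxcl1, Cxcl2, Cxcl5 and Cxcr2 were also lower among 13 CXC genes, while Cxcl9, Cxcl10, Cxcl16 and Cx3cr1 were higher. Of 14 CC chemokine genes 8 were lower and none higher (medians -1.38 and -1.27), with Ccl2 at 2327 and 3738 CPM on day 1 and 496 and 491 CPM on day 3, and Ccl6 at 4929 and 4378 CPM and then 391 and 525 CPM. Inflammatory cytokine genes were lower in 8 of 14, with Il1b at 1450 and 1258 CPM and then 466 and 466 CPM. Il18 was higher. Neutrophil genes were lower in 15 of 17.

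Fn1 fell from 2923 and 2310 CPM to 180 and 160 CPM (log2 ratios -4.02 and -3.85), Pdpn from 250 and 148 CPM to 9.55 and 7.64 CPM, and the adenosine-forming ectoenzyme Nt5e from 29.5 and 20.4 CPM to 0.501 and 0.181 CPM. Neutrophils of day 1 held more Nt5e, 229 and 176 CPM. Without barcodes that carry a neutrophil-gene UMI, 398 genes were lower on day 3 in place of 528. The part of neutrophils in the fall of Nt5e was not tested further. Hmox1 fell to 212 and 197 CPM (-2.38 and -2.21) and Vegfa to 7.75 and 7.32 CPM (-3.43 and -2.42). Glycolysis and hypoxia genes were lower in 9 of 34, with P4ha2 higher. In the arginine and polyamine list 5 of 19 were lower, namely Arg2, Odc1, Azin1, Srm and the arginine transporter Slc7a1, and Sat1 and Gatm were higher. The other leading lower genes, Csta2, Lcn2, S100a9, Asprv1, S100a8, Cxcr2 and Tarm1, are mainly neutrophil genes.

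Most genes of cell division, interferon response and antigen presentation were higher on day 3. All 20 G2M genes passed (medians 3.73 and 3.27), with Mki67 at 4.91 and 4.58 CPM on day 1 and 45.3 and 38.6 CPM on day 3. Interferon genes were higher in 16 of 19, with Ifit3 at 10.6 and 5.51 CPM and then 185 and 235 CPM. Antigen presentation genes were higher in 13 of 17, with H2-Aa at 236 and 234 CPM and then 1310 and 1215 CPM, and Cd80 was lower.

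Lipid-handling genes were higher in 8 of 28 and lower in 2 (medians 0.70 and 0.65). Apoe rose from 3361 and 5053 CPM to 26939 and 28624 CPM (3.00 and 2.50), and Gpnmb from 119 and 143 CPM to 699 and 953 CPM. C1qa rose from 696 and 818 CPM to 2656 and 2746 CPM, 1 of 7 higher of 15 complement genes, with C3, C5ar1 and Itgam lower. The selenium carrier Selenop rose from 341 and 426 CPM to 2849 and 3052 CPM, 1 of 5 of 11 resident genes. Growth factors were exchanged, 5 higher and 5 lower of 20: Igf1 rose from 14.4 and 18.7 CPM to 171 and 163 CPM and Gdf15 from 13.9 and 15.6 CPM to 196 and 170 CPM, with Pdgfb, Bmp2 and Angptl4, while Vegfa, Inhba, Areg, Nrg1 and Adamts9 were lower.

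The genes with the largest rises were not macrophage genes. Chrna1, Myog, Sox11, Mymx, Mymk, Postn, Gal, Sfrp2, Mest and Cdh15 include the differentiation factor and the fusion proteins of young muscle cells. Myog went from 0.0969 and 0 CPM to 37.8 and 45.0 CPM, in 196 and 152 cells, and 1% of cells held 91.0% and 92.9% of its UMIs. Mymk was found in 77 and 51 cells. The fibro-adipogenic list was higher in 10 of 12, its summed level going from 252 and 293 CPM to 728 and 535 CPM. Gsn, which was not among the 10, held 214 and 263 CPM of the day 1 sums and 242 and 201 CPM of the day 3 sums. Neutrophils of day 1 had Gsn at 476 and 402 CPM. With barcodes that carry at least 2 UMIs of fibro-adipogenic, myogenic, endothelial or red cell markers left out, 1485 genes were higher on day 3 in place of 2191. The part of RNA or joined droplets from those cells was not tested further.

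**Figure D5:**
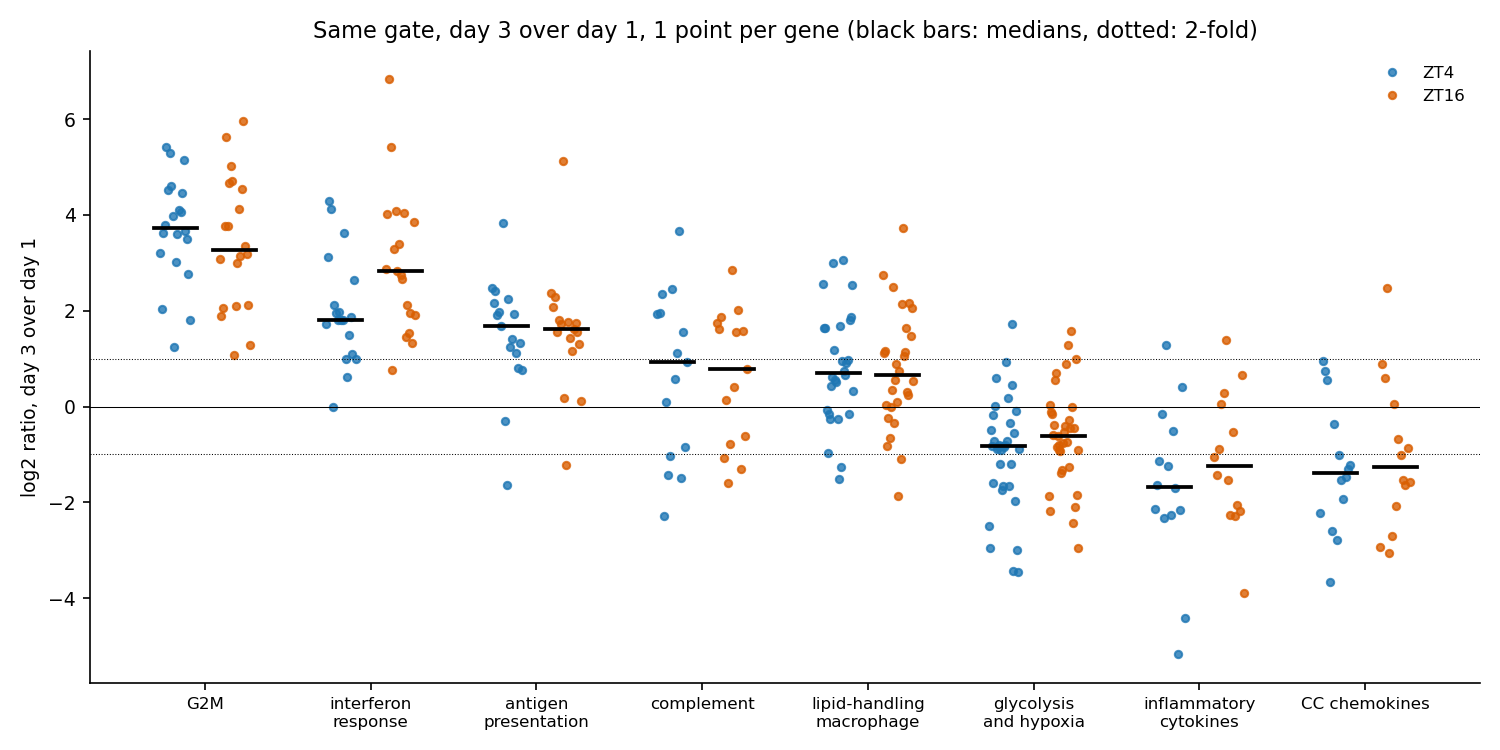
Log2 ratio of day 3 over day 1 for cells of the same gate, 1 point per gene in 8 lists, at ZT4 and ZT16, with black bars at list medians and dotted lines at 2-fold. G2M, interferon and antigen presentation genes lie above 0, and glycolysis, inflammatory cytokine and CC chemokine genes mostly below it, with CC medians of -1.38 and -1.27.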

How the data were processed

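The 6 libraries were measured by 10x single-cell RNA sequencing, and their gene by barcode matrices hold whole UMI counts that the authors deposited after cell calling. They were made by Cell Ranger, in version 6.1.2 per the file headers but 1.0.0 per the submitters' processing notes, which also list the build mm10. No source used here mentions removal of ambient RNA. The members and gene lists were chosen with earlier results of these data known.

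Each population's UMIs were summed per library and given as CPM (UMIs per 1000000), with 32285 features and no further normalisation. A log2 ratio had 0.5 UMIs added to each count and an exact conditional binomial 95% interval. PCR copies were collapsed by UMI, and intervals cover counting error only. There were no replicates, and no test was run. A gene was counted at 30 or more UMIs in the groups together, past 2-fold in both libraries (members against monocytes, day 3 against day 1) or 1.5-fold (ZT16 against ZT4). Neutrophils had at least 10 UMIs of Csf3r, Cxcr2, Retnlg, S100a8 and S100a9, at least 2 of the first 3 of these, and none of Csf1r, Ccr2 and Ms4a6c. Endothelial cells had at least 3 UMIs of Pecam1, Cdh5, Cldn5 and Egfl7, and none of Csf1r, Ccr2, Ms4a6c, Csf3r and Cxcr2. Shares that depend on depth were repeated with cells reduced at random to 1000, 2000 or 3000 UMIs. The highest scrublet scores, 0.8% per 1000 barcodes, marked doublets, which were kept in the analysis and left out as an alternative.

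Named genes were the 15 higher and 10 lower over monocytes, 10 each way for ZT and for day 3, and 5 per subset, ranked by the interval bound nearest to no change, with at least 100 UMIs and, over monocytes, a UMI in at least 10% of cells of the higher population. Mitochondrial, ribosomal, Gm and Rik genes and the 10 gate genes were left out. Genes of 34 lists were named besides. A few genes that these rules would name are not reported here. Promoter letters came from the RefSeq table (GRCm38.p6), and gene positions from the GENCODE vM21 annotation. The scripts were tested on simulated counts and run in Python 3.11.15 with numpy 2.4.6, scipy 1.17.1, pandas 2.3.3, scanpy 1.11.5 and matplotlib 3.10.9.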

Additional observations from a re-analysis of the deposited data

Results flagged for a closer look

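Of 8318 genes with at least 100 UMIs in each population, 3 went in opposite directions in members and monocytes by a stricter rule. In both populations the whole interval had to lie past 1.5-fold between collection times. Genes left out of naming were left out here too, and the difference between the populations was not tested. Ctla2a had a log2 ratio of ZT16 over ZT4 of -1.14 in members (11.1 and 5.01 CPM) and 1.86 in monocytes (2.16 and 7.89 CPM). Plpp3 had -1.36 in members (9.92 and 3.86 CPM) and 1.68 in monocytes (1.55 and 5.02 CPM). Cxcl5 had -2.42 in members (41.3 and 7.70 CPM) and 4.06 in monocytes (0.498 and 8.76 CPM), and 1% of members held 94.0% and 93.0% of its UMIs.

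The same gate found 787 barcodes in uninjured muscle at ZT4 and 594 at ZT16, which are 6.69% and 4.79% of kept barcodes. They entered by Pf4, at 5271 and 4578 CPM, with Arg1 at 8.67 and 6.75 CPM and Spp1 at 11.6 and 10.0 CPM. Ppbp was at 16.9 and 4.05 CPM there. At least 2 resident-marker UMIs were present in 724 and 551 of them, with Lyve1 at 377 and 1290 CPM, Cd163 at 486 and 794 CPM, Folr2 at 904 and 985 CPM and C1qa at 4350 and 5193 CPM. Members of day 1 had lower levels of all 4 of these genes: Lyve1 at 1.23 and 3.23 CPM, Cd163 at 20.4 and 26.8 CPM, Folr2 at 73.5 and 93.7 CPM and C1qa at 696 and 818 CPM.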

How the results depend on the processing

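Day 3 was compared with day 1 within each collection time, but no paired test was run. Each group held 1 library, so no replicate could be left out. A fit with day and collection time as additive terms over the 6 libraries was not run. Of 2838 values recomputed, 2254 were classed as the same, 578 as moved and 6 as reversed. A value was the same when it lay within the interval of the reported value, or within 1.5-fold for a count of genes. A ratio was reversed when its sign changed, for a gene only where the reported ratio had passed the fold. The share of members of kept barcodes (22.9% and 30.8%, log2 ratio 0.43) was 18.8% and 22.9% (0.29) with barcodes reduced to 2000 UMIs before gating, 21.6% and 29.2% without marked doublets, and 35.3% and 42.2% (0.26) without barcodes that carry a neutrophil-gene UMI, a step that also takes neutrophils from the denominator. Reducing barcodes also gave 1309 genes higher on day 3. With a gene minimum of 100 UMIs in place of 30, 351 genes were higher and 512 lower at ZT16, and with 10 UMIs 832 and 1592. Centring on the median gave 422 higher and 433 lower genes over monocytes (533 and 342 uncentred) 637 and 794 at ZT16 (550 and 928), and 1926 and 685 on day 3 (2191 and 528).

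Further alternatives were chosen after seeing the data. Without members that carry at least 2 resident-marker UMIs the shares were 14.3% and 14.4% (0.0012) in unreduced counts, the log2 ratio of the share of gated barcodes turned to -0.056 (-0.16 to 0.05), and 312 genes were higher over monocytes. Log2 ratios over monocytes then turned to -0.012 for Folr2 at ZT16, -1.18 for Cbr2 at ZT16, and -0.62 at ZT4 and -1.62 at ZT16 for Cd163, and Il10 between collection times turned to -0.050. Leaving out, for each gene, the 1% of cells with most of its UMIs gave 679 higher and 589 lower genes at ZT16. The same step gave 787 higher and 289 lower genes over monocytes. Leaving out barcodes with markers of other cell types gave shares of 24.1% and 34.2% (0.50), and 1485 higher and 692 lower genes on day 3. Depth limits what can be said of clock genes, Lyve1 and Igf1, whose levels rest on few UMIs a cell.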
